A study of Mus musculus with 9 samples.

Results

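The miR-103 and miR-107 family was examined in small RNA libraries of B16F1 cells, a mouse melanoma line from the C57BL/6J strain. Its members were taken by name from the deposited count table. They were the entries listed under the hairpins of mmu-mir-103 (mir-103-1 and mir-103-2) and mmu-mir-107, and the entries named for a mature miR-103 or miR-107. These were 65 of 6414 entries, of which 60 were sequence tags (21 under mir-103-1, 22 under mir-103-2 and 17 under mir-107) and 5 were mature names. The 5 mature names were listed at 0 in all 9 libraries. The study had 3 groups of 3 libraries, which the labels call independent replicates. Control cells were not exposed. The L-Tyr cells received 5 mM L-tyrosine, the amino acid from which melanin is made, and the BrdU cells received 2.5 µg/mL 5-bromo-2′-deoxyuridine, a thymidine analogue. Both exposures lasted 72 h. All groups are the same cell line, so they are no sample of different tumours. The libraries held between 144452 and 424122 counts, and the family took 32586 of 2381030 counts in all (1.37%).

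miRNAs are short RNAs that are cut from a hairpin precursor by Drosha and Dicer and then guide Argonaute proteins to mRNAs. Pairing with the mRNA rests mainly on the seed, bases 2 to 8 of the mature miRNA. The miR-103 and miR-107 family is known for its hairpins inside introns of the pantothenate kinase genes, whose enzymes start the synthesis of coenzyme A, and for targeting Dicer and caveolin in work on metastasis and insulin signalling. The mature 3p sequences are shown first, because every comparison below depends on how much of them a tag covers. Capitals mark the seed and base 22, counted from the 5′ end, and the sequences are from RefSeq (GRCm38.p6).
mmu-miR-103-3p: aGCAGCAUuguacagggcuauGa
mmu-miR-107-3p: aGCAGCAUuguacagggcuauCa
Both are 23 nt long and have the same seed. They differ only by the substitution G22C, with the base of miR-103 given first, and share the 21 bases before it. Base 22 is therefore the base that tells miR-103 from miR-107 in these data.

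The 3 hairpins lie at 3 separate loci (NCBIM37, the assembly called mm9, with GENCODE annotation). Mir103-1 (ENSMUSG00000065553.1) is at chr11:35595898-35595983 on the plus strand, in intron 5 of the 7-exon gene Pank3, and its mature 3p sequence occupies positions 35595949 to 35595971. Mir103-2 (ENSMUSG00000065563.1) is at chr2:131113788-131113873 on the plus strand, in intron 6 of the 8-exon gene Pank2, with the mature sequence at 131113839 to 131113861. Mir107 (ENSMUSG00000065594.1) is at chr19:34895177-34895263 on the minus strand, in intron 5 of the 7-exon gene Pank1, with the mature sequence at 34895190 to 34895212. Each hairpin has the orientation of its host gene, and none overlaps an exon. The introns differ in length, with 1740 bp in Pank3, 5801 bp in Pank2 and 7282 bp in Pank1. The mRNAs of these host genes were not measured in these libraries.

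All 60 tag entries lay in the 3p arm. No tag of the 5p arm was listed, although 277 of the 423 hairpins in the table had at least 1 tag in that arm. The least counted tag of the table still held 5 counts over all libraries, so 5p tags below that size could have been left out, and no upper limit is given. The 60 entries were made of 31 distinct sequences of 16 to 20 nt. No tag in the whole table was longer than 20 nt, so none could hold the whole 23-nt miRNA, and a tag that reached base 23 had to start at base 4 or later. Whether reads or tags were shortened before deposit is not known, so the start, end and length shares below describe the tags as deposited and may not describe the RNA in the cells. The 5 most abundant tags are shown because they made up 75.4% of the family counts, with base 22 in capitals.
start at base 4, end at base 23: agcattgtacagggctatGa
start at base 5, end at base 23: gcattgtacagggctatGa
start at base 6, end at base 23: cattgtacagggctatGa
start at base 3, end at base 22: cagcattgtacagggctatG
start at base 4, end at base 22: agcattgtacagggctatG
All 5 were miR-103-type, that is, they had G at base 22, and all lacked bases 1 and 2. The first held 9186 counts (28.2% of the family), the second 6862 (21.1%), the third 6185 (19.0%), the fourth 1474 (4.52%) and the fifth 866 (2.66%). The 2 most abundant miR-107-type tags are the counterparts of the second and the first of these.
start at base 5, end at base 23: gcattgtacagggctatCa
start at base 4, end at base 23: agcattgtacagggctatCa
They held 560 counts (1.72%) and 490 counts (1.50%).

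The family was thus read almost wholly from its 3′ portion. Tags that started at base 4 or later held 91.3% of the family counts, and tags that started at base 1 held 0.853%. Over the 320 other known hairpins, the same shares were 41.1% and 25.7%. A 20-nt tag can reach the end of a shorter mature miRNA from an earlier start, so this cut is not equal between hairpins. Tags that ended at base 23, the last base of the mature miRNA, held 77.0% of the family counts, against 36.9% that ended at the annotated last base elsewhere. Ends were counted by position, so the 77.0% includes tags with a T at base 23 that no hairpin encodes (the largest held 844 counts). These shares describe the tables and were not tested. Base 4 was the most common start on average in each group. It took 34.4% ± 1.98 of the counts in control (SD, n = 3), 40.0% ± 1.57 in L-Tyr and 37.2% ± 6.07 in BrdU. The L-Tyr libraries (38.3 to 41.4%) were all above the controls (33.0 to 36.6%), and the BrdU libraries (30.9 to 43.0%) spanned both. Base 5 took 32.5% ± 4.37, 31.8% ± 4.98 and 35.4% ± 4.84, and base 6 took 23.4% ± 4.58, 20.2% ± 2.03 and 19.2% ± 3.03, with overlap between the groups. Most tags thus began inside the seed and do not show the 5′ end of the miRNA.

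**Figure D1:**
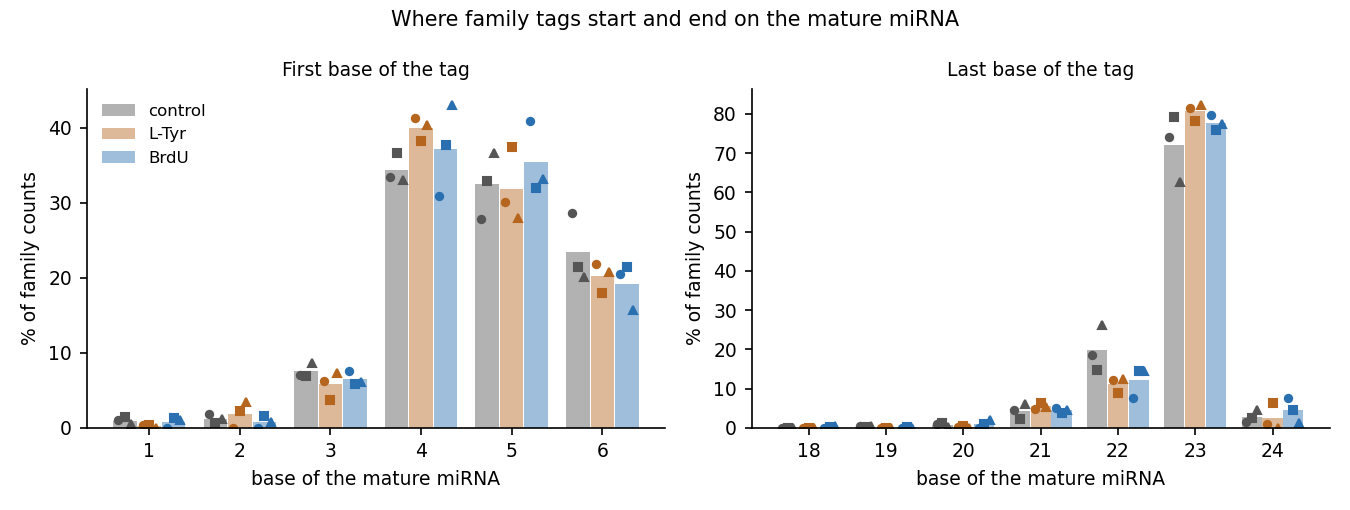
Share of the family counts of each library (%, vertical axis) by the base of the mature miRNA at which a tag starts (left) or ends (right), where base 24 is 1 base past the mature end. Bars are means of 3 libraries and points are libraries; base 4 is the most common start in control (34.4%), L-Tyr (40.0%) and BrdU (37.2%), and base 23 the most common end in each group.

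The hairpin a tag was listed under did not identify its source. Of the 31 sequences, 21 were listed under at least 2 hairpins and 8 under all 3, and these shared sequences held 30356 counts, 93.2% of the family. For the 19 sequences listed under both mir-103-1 and mir-103-2, 14863 counts stood under the first and 14691 under the second. The share under mir-103-1 was thus 50.3% (95% Wilson interval 49.7 to 50.9%, counting error only). In the 121 pairs of tag and library with at least 10 counts, the chi-square per pair was 1.11 (chi-square test of an even split, p = 0.188), and 5 pairs held identical counts. The counts were therefore taken as reads divided between the hairpins, not repeated under each, and all entries were added up. How the software shared them is not stated in the sources used here, and the levels below rest on this reading. Pank3 and Pank2 as sources of miR-103 cannot be told apart here. The mir-107 entries were mixed: 75.6% of their counts were miR-107-type, 7.51% were miR-103-type and 16.9% were in tags that stop before base 22. For this reason the levels are given by sequence type as well as by hairpin.

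**Figure D2:**
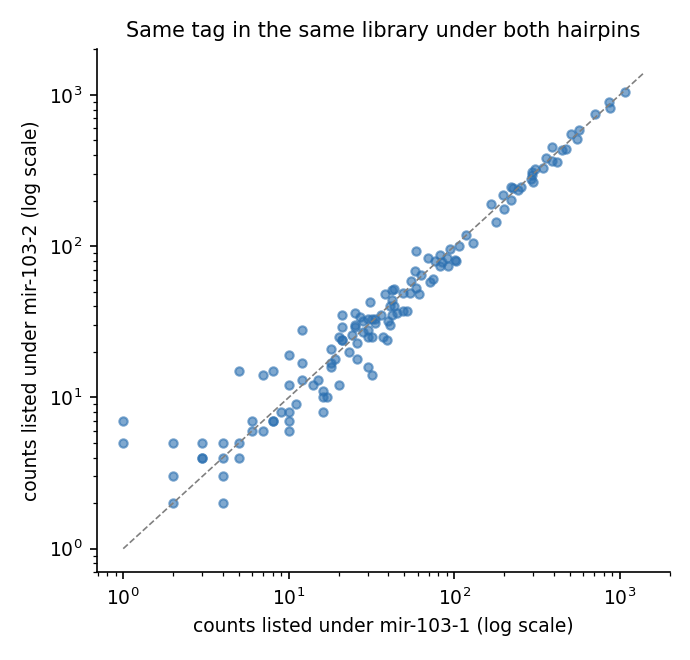
Counts of the same tag in the same library listed under mir-103-1 (horizontal axis) and mir-103-2 (vertical axis), both on log scales, for pairs above 0 under both; the dashed line marks equal counts. The points lie along the line, with more scatter at low counts, and the share under mir-103-1 is 50.3%.

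miR-103-type reads made up most of the family in every library. The family ranked between 16 and 32 among 302 hairpin-arm sums (the summed counts of 1 arm of 1 hairpin) that passed the filter on low counts. Levels are given in CPM (counts scaled to a common library size) after TMM scaling, which sets each library by the bulk of its miRNAs. In control libraries 1, 2 and 3 the family sum was 14693, 17375 and 11707. In L-Tyr it was 14938, 15458 and 15115, and in BrdU it was 10269, 13089 and 9814. The L-Tyr libraries lay close together and inside the control range, whereas 2 of the BrdU libraries lay below every other library. The group means were 14592 ± 2836 in control, 15170 ± 264 in L-Tyr and 11057 ± 1774 in BrdU (SD, n = 3). In the order of the means, L-Tyr and control differed by less than their spread, control and BrdU overlapped, and L-Tyr and BrdU did not overlap.

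miR-103-type reads followed the family sum. They stood at 12727, 15647 and 9362 CPM in control, at 13922, 13430 and 13664 in L-Tyr, and at 8952, 11473 and 8390 in BrdU. miR-107-type reads, the only ones that can be given to Pank1, had a different order. They stood at 1092, 1107 and 1580 CPM in control, at 256, 1002 and 634 in L-Tyr, and at 791, 929 and 730 in BrdU. All 6 exposed libraries lay below all 3 controls, and the L-Tyr libraries were far apart from each other. There were between 5.93 (control 3) and 54.4 (L-Tyr 1) miR-103-type reads for each miR-107-type read. Tags that stop before base 22 stood at 754 ± 127 in control, 867 ± 140 in L-Tyr and 635 ± 95.1 in BrdU, and here too all BrdU libraries were below all L-Tyr libraries.

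**Figure D3:**
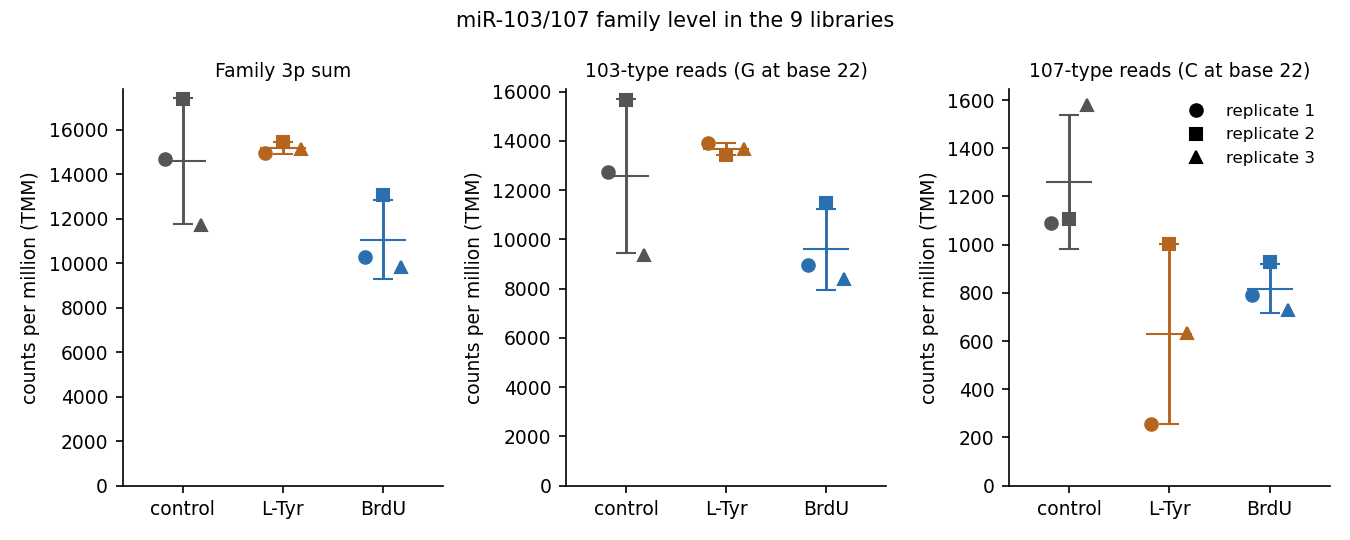
TMM CPM (vertical axis, from 0) of the whole family, of miR-103-type reads and of miR-107-type reads in the 3 groups; points are libraries, marked by replicate number, and bars are the mean with its SD. The BrdU libraries lie below the L-Tyr libraries for the family (9814 to 13089 against 14938 to 15458), and the exposed libraries lie below the controls for miR-107-type reads.

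The comparison of L-Tyr with control asked whether the family level moved with the exposure that raises pigmentation. For the family sum no difference was found. The log2 fold change was -0.02 with a standard error of 0.18 and a 95% interval of -0.44 to 0.39 (edgeR quasi-likelihood test, adjusted p = 0.995), so changes to below 0.738-fold or above 1.31-fold lie outside the interval. For mir-103-1 and mir-103-2, which share nearly all of their reads, the log2 fold changes were 0.06 (SE 0.21) and 0.03 (SE 0.21). For mir-107 the log2 fold change was -0.83 (SE 0.44, edgeR adjusted p = 0.460). For miR-107-type reads it was -1.08 (SE 0.50, interval -2.22 to 0.06, unadjusted p = 0.0604 and adjusted p = 0.363 in edgeR), and for miR-103-type reads it was 0.05 (SE 0.21). None of these passed the threshold of an adjusted p of 0.05, and 2.67% of the 262 sums tested did. The L-Tyr libraries of miR-107-type reads and of mir-107 were below all controls (exact two-sided permutation test, p = 0.1 for each, the smallest that 3 against 3 can give). Of all sums tested, 9.16% had every L-Tyr library below every control. L-Tyr replicate 1 carried a large part of the miR-107-type value. Without it the log2 fold change was -0.71, and without L-Tyr replicate 2 it was -1.53, neither past the threshold.

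The comparison of BrdU with control asked the same for the exposure that lowers pigmentation. The log2 fold change of the family sum was -0.43 (SE 0.23, interval -0.97 to 0.11, edgeR adjusted p = 0.365), a level 0.741-fold that of control. The hairpins gave -0.42 for mir-103-1, -0.40 for mir-103-2 and -0.66 for mir-107 (SE 0.25, 0.25 and 0.29), with edgeR adjusted p values of 0.406, 0.436 and 0.289. miR-103-type reads gave -0.43 (SE 0.26) and miR-107-type reads -0.67 (SE 0.33, edgeR adjusted p = 0.329). None was called, against 3.14% of the 287 sums tested. The BrdU levels of mir-107 and of miR-107-type reads were below all controls (exact two-sided permutation test, p = 0.1 for each). This held for 12.5% of all sums tested.

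BrdU and L-Tyr were also compared directly, and here the family sums did not overlap. All 3 BrdU libraries were below all 3 L-Tyr libraries (exact two-sided permutation test of the levels, p = 0.1, adjusted p = 0.225 over 18 comparisons), as in 7.87% of all sums tested. The log2 fold change was -0.48 (SE 0.20, interval -0.94 to -0.02, edgeR unadjusted p = 0.0432, adjusted p = 0.378), a level 0.718-fold that of L-Tyr. It did not pass the threshold, which 2.36% of the 254 sums passed. The fold changes were -0.55 (SE 0.21) for mir-103-1, -0.50 (SE 0.20) for mir-103-2 and -0.53 (SE 0.20) for miR-103-type reads on the log2 scale. For mir-107 and miR-107-type reads they were 0.10 (SE 0.51) and 0.35 (SE 0.58), with intervals from -1.08 to 1.28 and from -1.0 to 1.70. No hairpin or read type was called in any of the 3 comparisons by edgeR. Unadjusted p values under 0.05 were found for 2 hairpins (mir-103-1 and mir-103-2) and 1 read type (miR-103-type), all between BrdU and L-Tyr. They rest largely on the same reads. In that comparison edgeR gave an unadjusted p under 0.05 for 33 of 256 sums by hairpin. With the family split by read type it did so for 32 of 256. DESeq2 called no hairpin or read type of the family either.

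**Figure D4:**
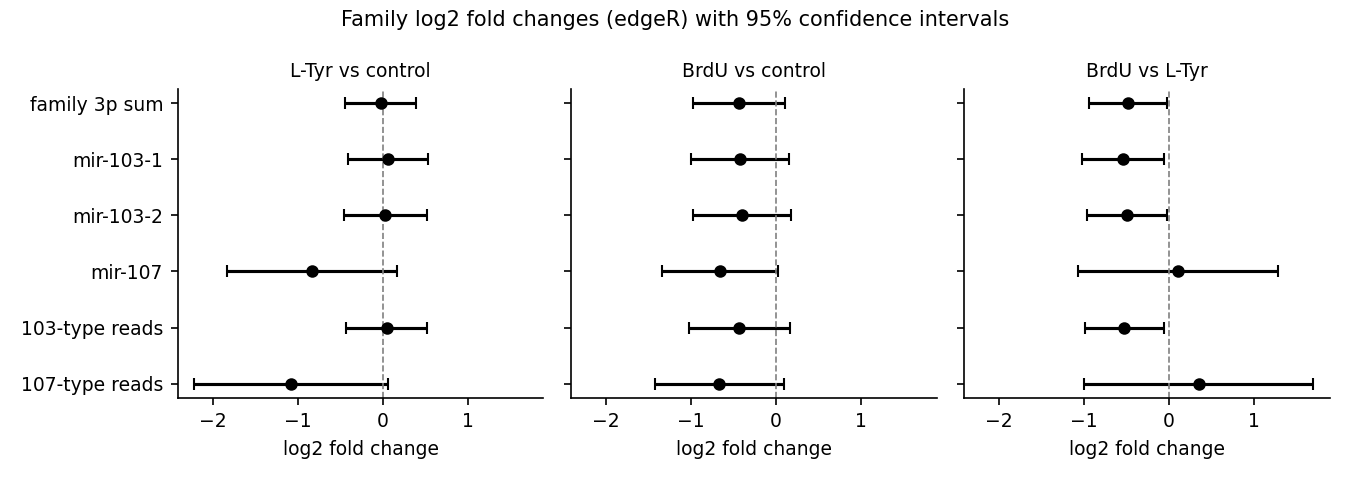
log2 fold changes (horizontal axis) of the family sum, the 3 hairpins and the 2 read types in the 3 comparisons, with 95% confidence intervals from edgeR; the dashed line marks no change. The intervals of the family sum include 0 for L-Tyr (-0.44 to 0.39) and BrdU (-0.97 to 0.11) against control and end just below 0 for BrdU against L-Tyr (-0.94 to -0.02); no adjusted p is under 0.05.

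BrdU replicate 3 had the lowest family level of all 9 libraries, and it stood apart in markers of other cell types. The melanocyte-lineage miRNAs mir-211 and mir-204 summed to 7579 CPM there, within the BrdU range of 7075 to 7579, below 10246 to 16640 in control and 22321 to 26989 in L-Tyr. mir-211 was present in all 9 libraries, and mir-204 was at 0 in BrdU replicate 1. The 4 stromal markers (mir-143, mir-145, mir-199 and mir-214) were all above 0 in BrdU replicate 3 and summed to 276611 CPM, against at most 7607 in the other 8 libraries. Both erythroid markers (mir-451 and mir-144) summed to 6441 there, against at most 295 elsewhere. Of the 3 leukocyte markers 2 were above 0 (mir-142 and mir-223, with mir-150 at 0), with a sum of 1545 against at most 70.7. The endothelial miRNA mir-126 stood at 7461 against at most 272, while the hepatic miRNA mir-122 was highest in L-Tyr replicate 2 (78.6). Without this library the BrdU mean of the family was 11679, and both remaining libraries were still below the L-Tyr libraries. The log2 fold change was then -0.28 against control (SE 0.26, edgeR adjusted p = 0.725) and -0.36 against L-Tyr (SE 0.20, edgeR adjusted p = 0.696). The part of these markers in the family level was not tested. In these bulk libraries, fewer cells of a type and less RNA per cell cannot be told apart.

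The 3 most abundant tags were also followed one by one. The most abundant tag, from base 4 to base 23, stood at 3502, 4831 and 2659 CPM in control, at 5114, 4157 and 4737 in L-Tyr, and at 2749, 3850 and 3097 in BrdU. Here all BrdU libraries were below all L-Tyr libraries, and the controls overlapped both. Its log2 fold changes were 0.21 (SE 0.28), -0.23 (SE 0.32) and -0.48 (SE 0.30) for L-Tyr against control, BrdU against control and BrdU against L-Tyr. The next, from base 5, stood at 2798, 4015 and 2217 in control, at 3142, 3458 and 3276 in L-Tyr, and at 2391, 2422 and 2070 in BrdU. The third, from base 6, stood at 3658, 3320 and 1867 in control, at 3149, 2637 and 2953 in L-Tyr, and at 2062, 2632 and 1185 in BrdU. Each of the 3 tags thus had all BrdU libraries below all L-Tyr libraries, in the last of them by a narrow margin (2632 against 2637). These 3 tags held 68.2% of the family counts, so their order largely restates that of the family sum. How many of all distinct tags had this order was not counted. None was called, and all edgeR adjusted p values of these 3 tags were at least 0.689.

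Of the 21 sequences with a mean of at least 10 counts per library, 12 were at 0 in at least 1 library. These included all 5 of the miR-107-type sequences, 3 of the 11 miR-103-type sequences and 4 of the 5 that stop before base 22. Counting all 8 listed miR-107-type sequences, 6 were above 0 in each control library, whereas 2, 6 and 3 were in L-Tyr replicates 1, 2 and 3, and 6, 6 and 5 in BrdU replicates 1, 2 and 3. The 2 most abundant miR-107-type tags were both at 0 in L-Tyr replicate 1. The miR-107-type level of that library came from 38 counts.

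No family tag was called by edgeR in any comparison. It tested 22 family tags between L-Tyr and control, 21 between BrdU and control and 19 between BrdU and L-Tyr, of which 1, 0 and 1 had an unadjusted p under 0.05. Among all distinct tags tested, 0.0899% were called between L-Tyr and control, 0% between BrdU and control and 0.185% between BrdU and L-Tyr. Of these, 95 of 1112, 128 of 1299 and 81 of 1081 had an unadjusted p under 0.05 in edgeR. DESeq2 called 35 between BrdU and control. The family tag with the lowest edgeR p value between L-Tyr and control was a 17-nt tag that ends 1 base short of the mature end.
start at base 6, end at base 22: cattgtacagggctatG
It held 112, 182 and 109 counts in control, 1, 20 and 15 in L-Tyr, and 8, 74 and 98 in BrdU. In CPM these were 529, 416 and 482 in control, 6.73, 78.6 and 78.0 in L-Tyr, and 46.2, 169 and 360 in BrdU. All exposed libraries lay below all controls. How many of all distinct tags had this order was not counted, and the tag is shown because of its low p value. For L-Tyr against control the log2 fold change was -3.19 (SE 1.02), which edgeR did not call (adjusted p = 0.318) and DESeq2 did (log2 fold change -3.15, adjusted p = 0.0176). DESeq2 called no other family tag. Over all distinct tags, without the filter on low counts, it called 47 between L-Tyr and control and 38 between BrdU and L-Tyr. With the filter, edgeR tested 1112 and 1081 tags there. How many of the DESeq2 calls had passed the filter was not counted. Whether 1 call among 22 family tags exceeds the share over all tags therefore cannot be read here. For BrdU against control the edgeR log2 fold change of the 17-nt tag was -1.35 (SE 0.75, adjusted p = 0.658). The tag with an unadjusted p under 0.05 between BrdU and L-Tyr was 1 base shorter and had the opposite order of L-Tyr and control.
start at base 6, end at base 21: cattgtacagggctat
It held 4, 1 and 0 counts in control, 17, 16 and 23 in L-Tyr, and 0, 0 and 1 in BrdU. All L-Tyr libraries lay above all others, on few counts. Its edgeR log2 fold change for L-Tyr against control was 3.61 (SE 1.87, adjusted p = 0.658), and between BrdU and L-Tyr the edgeR unadjusted p was 0.0221 (adjusted p = 0.496).

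The forms of the family were compared as shares of its counts in each library, which do not depend on scaling between libraries. Tags of 20 nt made up 37.4, 42.2 and 38.1% in control, 44.3, 45.5 and 47.0% in L-Tyr, and 40.3, 44.2 and 45.2% in BrdU. The L-Tyr libraries were above all controls, by 6.36 percentage points on average (exact two-sided permutation test, p = 0.1, adjusted p = 0.257 over 18 comparisons of shares). Tags that start at base 1, the only ones with the whole seed and the first base, made up 1.06, 1.39 and 0.454% in control and 0.315, 0.381 and 0.0344% in L-Tyr, again without overlap (exact permutation test, p = 0.1, adjusted p = 0.257). In BrdU they made up 0, 1.33 and 1.05%, which overlapped both other groups. The value in BrdU replicate 1 is 0 of 1778 counts, which allows a share of up to 0.169% (3 counts of the total, counting error only). Reads that cover base 22, and so can be given to a type, made up between 92.9 and 96.4% of the counts in every library, and the groups overlapped.

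Another 3 shares were chosen after the data had been seen. miR-107-type reads made up 7.90, 6.60 and 14.4% of the reads that cover base 22 in control, 1.80, 6.94 and 4.44% in L-Tyr, and 8.12, 7.49 and 8.01% in BrdU. The L-Tyr libraries were below the BrdU libraries, by 3.48 percentage points on average, while L-Tyr and control overlapped (exact two-sided permutation test, p = 0.1 and p = 0.2). Tags that end at base 22, 1 base short, made up 18.6, 14.6 and 26.2% in control, 12.3, 8.87 and 12.3% in L-Tyr, and 7.48, 14.4 and 14.4% in BrdU. All 6 exposed libraries were below all controls, with BrdU replicates 2 and 3 just below control replicate 2. The mean difference was -8.63 percentage points for L-Tyr and -7.72 for BrdU (exact two-sided permutation test, p = 0.1 for each). Tags with a 3′ T that none of the 3 hairpins encodes made up 4.95, 6.04 and 3.55% in control, 6.26, 15.2 and 6.16% in L-Tyr, and 10.0, 8.50 and 8.71% in BrdU. All 6 exposed libraries were above all controls, with L-Tyr replicates 1 and 3 just above control replicate 2. The mean difference was 4.36 percentage points for L-Tyr and 4.23 for BrdU (exact two-sided permutation test, p = 0.1 for each). In all, 7 of the 18 comparisons of shares did not overlap, and none had an adjusted p below 0.257. Most of these 7 were in the 3 shares chosen after the data had been seen. The exact permutation test gives no p below 0.1 here, so no share could pass 0.05. How often the same shares separate the groups in other hairpins was not counted.

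**Figure D5:**
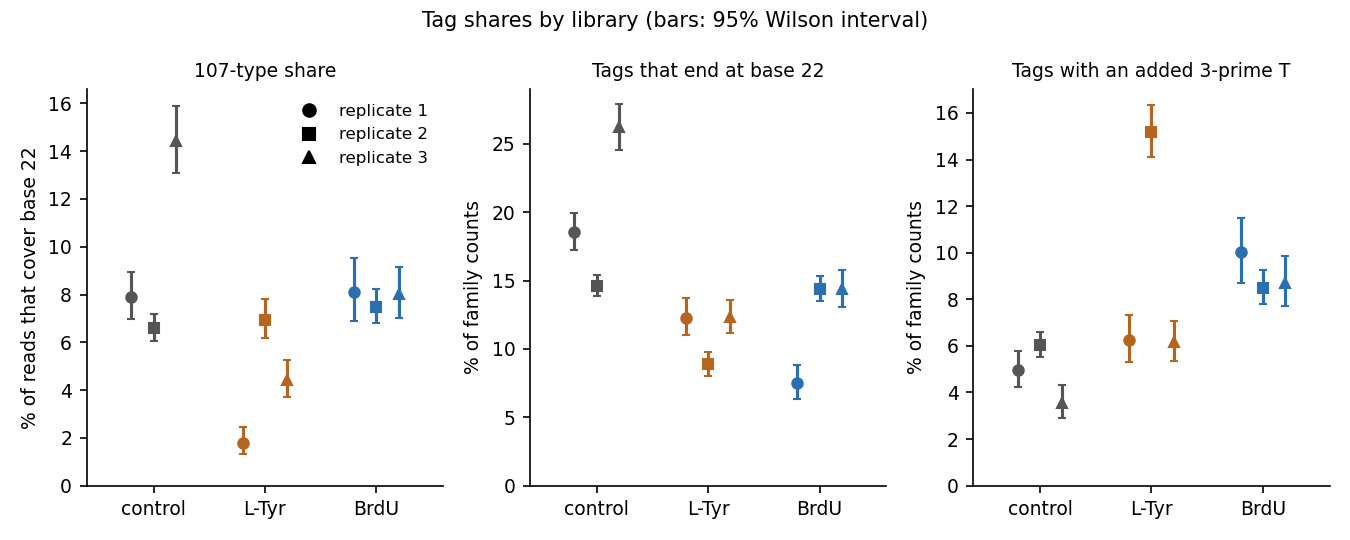
Shares (%, vertical axes from 0) in each library of miR-107-type reads among reads that cover base 22, of tags that end at base 22, and of tags with an added 3′ T among all family counts; bars are 95% Wilson intervals for counting error. For tags that end at base 22 the exposed libraries lie below the controls (at most 14.4 against at least 14.6%), and for the added T they lie higher than the controls (at least 6.16 against at most 6.04%).

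The hairpin-arm sums whose log2 level was most like that of the family over the 9 libraries were mir-181a-2 5p (Pearson r = 0.779), mir-25 3p (r = 0.758) and mir-181a-1 5p (r = 0.744), out of 150 sums at or above the median level. These values are descriptions over libraries that share groups and scaling, and mir-181a-1 and mir-181a-2 share mature sequence. mir-25, a hairpin in an intron of Mcm7, stood at 3077, 3948 and 3433 CPM in control, at 2759, 3104 and 3863 in L-Tyr, and at 1652, 1941 and 1967 in BrdU. Like the family, it had all BrdU libraries below all L-Tyr libraries, as in 7.87% of all sums tested. Because mir-25 was picked for its likeness to the family, this order was in part fixed by the choice. Unlike the family, it also had all BrdU libraries below all controls, as in 12.5% of all sums tested.

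Related miRNAs hold the first 7 bases of the family 1 base further in. In miR-15a, miR-15b, miR-16, miR-195 and their relatives these 7 bases are the seed itself, so that their targets partly overlap with those of miR-103 and miR-107. Of 9 RefSeq names in this group, 7 hold the 7 bases at position 2, and miR-503-5p and miR-497b do not. Capitals mark bases 2 to 8 in the examples, which are shown to let the offset be read against miR-103.
mmu-miR-15b-5p: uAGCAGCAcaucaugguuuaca
mmu-miR-16-5p: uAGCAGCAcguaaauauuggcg
mmu-miR-322-5p: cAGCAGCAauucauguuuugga
mmu-miR-503-5p: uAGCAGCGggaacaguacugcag
Both arms of each hairpin were taken, so the list is wider than the miRNAs that hold the 7 bases as their seed. In each comparison it included mir-15b 3p and mir-322 3p, which are opposite arms, and mir-503 5p, which lacks the 7 bases. Of 14 hairpin-arm sums of this list, 8, 9 and 9 were tested in the comparisons of L-Tyr with control, BrdU with control and BrdU with L-Tyr, and edgeR called none. Unadjusted p values under 0.05 were found for 0, 2 and 2 of them, and DESeq2 called 0, 0 and 1 (mir-503 5p, higher in BrdU than in L-Tyr, log2 fold change 1.81, adjusted p = 0.0046). Over all sums, 37 of 262, 54 of 287 and 32 of 254 had an unadjusted p under 0.05. DESeq2 called 20 of 645, 30 of 702 and 19 of 663. These DESeq2 totals include sums below the filter on low counts, which the list members counted here had passed. The DESeq2 shares of the list and of all sums are thus not directly comparable. The list's median log2 fold changes were -0.21, 0.19 and 0.40, beside -0.13, -0.09 and 0.01 over all sums tested. The most abundant, mir-15b 5p, had log2 fold changes of 0.20 (SE 0.16), 0.19 (SE 0.21) and -0.08 (SE 0.20). Next came mir-322 3p, the arm opposite to the sequence shown, with -0.07 (SE 0.26), 0.41 (SE 0.38) and 0.40 (SE 0.33). mir-322 5p was at 7373 CPM in BrdU replicate 3, the library with the high stromal markers, and at 194 or less in the other libraries.

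Other miRNA families also sit in introns of paralogous genes: mir-26a and mir-26b in Ctdsp phosphatase genes, mir-148b and mir-152 in Copz genes, mir-204 and mir-211 in Trpm channel genes, mir-218 in Slit genes, and mir-128. Of 17 hairpin-arm sums of these families, 10 were tested in each comparison. edgeR called 0 between L-Tyr and control, 0 between BrdU and control and 2 between BrdU and L-Tyr, both lower in BrdU. Unadjusted p values under 0.05 were found for 4, 5 and 4, beside 37, 54 and 32 over all sums tested. DESeq2 called 2, 3 and 2, beside 20, 30 and 19 over all sums, with the totals given for the first list. Those totals again include sums below the filter on low counts, which these 10 had passed. Against control, DESeq2 called mir-211 5p (log2 fold change 0.81) and mir-148b 3p (-1.41) for L-Tyr. For BrdU it called mir-148b 3p (-1.27), mir-211 3p (-1.80) and mir-211 5p (-0.88). The 2 called by edgeR were the arms of mir-211, which is transcribed with Trpm1 in pigment cells. mir-211 5p stood at 24687, 24385 and 19857 CPM in L-Tyr and at 7341, 6638 and 7156 in BrdU (log2 fold change -1.72, SE 0.20, edgeR adjusted p = 0.0061). mir-211 3p had a log2 fold change of -2.78 (SE 0.38, edgeR adjusted p = 0.0099). The second most abundant, mir-26a-2 5p, had 0.61 (SE 0.25) in the same comparison and was not called. The median log2 fold changes of the group were -0.60, -0.92 and -0.18. The family sum, for comparison, had -0.48 (SE 0.20) between BrdU and L-Tyr.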

How the data were processed

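B16F1 small RNA was sequenced as single reads of 50 bases, with libraries from the TruSeq Small RNA kit. The authors aligned the reads to mm9 and miRBase with Illumina's BaseSpace software, and gave a mature name only at full identity. The submitters' processing notes name MultiQC, FastQC, DESeq and DESeq2. The deposited counts are whole raw counts per entry (hairpin position, tag sequence and hairpin name, or a mature name), and only these were used. The authors' normalized counts and their tables of fold changes and p-values were not used. The paper lists mature miR-103 among its changed miRNAs, by DESeq2 with adjusted p-values. It lists it as lower in L-Tyr than in control and as lower in BrdU than in L-Tyr. It does not list it for BrdU against control. The mature names of the family held no counts in the deposited table. How the paper's entry relates to the sums and tags used here was therefore not tested.

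Tags were summed by hairpin and arm (start before 35, 5p) and the 3p sums of the family were merged. The counts were tested with edgeR 4.0.16 (R 4.3.3): filterByExpr, TMM, quasi-likelihood F test on the 6 libraries of a comparison, with Benjamini-Hochberg adjustment over the whole table and a threshold of 0.05. The standard error is the absolute log2 fold change divided by the square root of F. DESeq2 1.42.0 was an alternative. Shares and levels were compared by exact permutation tests. Hairpins were placed by the annotation of the same build. The pipeline was tested on simulated counts of L-Tyr and control, with the same spread between replicates for all features. Of planted log2 changes of 1, 2 and 3, it called 5.26, 5.56 and 45.8% among hairpin-arm sums. Among tags it called 0, 0 and 3.23%, and no unchanged feature was called. Real changes of these sizes can thus remain uncalled in features with that spread. For L-Tyr against control, the standard error of the family sum was 0.18, against a median of 0.68 over the 262 sums tested. The simulated percentages therefore do not show how often a change of the family sum would be called. Libraries held 144452 to 424122 counts, and the Wilson intervals of shares cover counting error only, since PCR copies are not independent molecules. The intervals of fold changes include the spread between replicates.

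The members and lists were chosen with earlier results of these data known. Named were all members, the 5 most abundant tags, the 3 sums most like the family, and of each list the called and the 2 most abundant. The miR-107-type tags, the 17-nt and 16-nt tags, mir-322 5p, mir-503 and the values of mir-148b were named after their values were seen.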

Additional observations from a re-analysis of the deposited data

How the results depend on the processing

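No family sum, hairpin or read type was past an adjusted p of 0.05 in the main analysis or under any alternative run. Of the single tags, DESeq2 called the 17-nt tag (adjusted p = 0.0176) and edgeR none. The shares could not pass 0.05, because the exact permutation test of 3 against 3 gives no p below 0.1. Their alternatives gave differences only, without p values. Depth limits the miR-107-type reads (38 counts in L-Tyr replicate 1), the share that starts at base 1 (0 to 106 counts a library) and the 17-nt and 16-nt tags (1 and 0 counts in their lowest libraries). Values below are log2 fold changes or percentage points, first group minus second, and the cause of a changed sign was not tested. The family sum of L-Tyr against control lay near 0 and became positive with DESeq2 size factors (0.0435), total counts (0.158), a mean count of at least 50 (0.0726), all 9 libraries in 1 fit (0.0560), the DESeq2 test (0.0295) and the most abundant tag alone (0.211). Leaving out each library gave -0.169 to 0.0942 for it, -0.55 to -0.26 for BrdU against control and -0.60 to -0.36 for BrdU against L-Tyr. BrdU differed more from L-Tyr (-0.48) than from control (-0.43) in the main analysis, but less with DESeq2 size factors (-0.40 and -0.41), the DESeq2 test (-0.40 and -0.42) and each distinct tag once (-0.44 and -0.45).

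No pairing of the libraries by replicate number was found, but 3 libraries per group cannot exclude it. Same-numbered libraries correlated by -0.114 to 0.0554 in their deviations from group means, and 1 of 9 correlated best with its own number. With a replicate block the family sum gave -0.01, -0.43 and -0.49, and the calls over all sums went from 7, 9 and 6 to 1, 1 and 3 in the 3 comparisons. Without a filter these calls were 14, 49 and 27, by DESeq2 20, 30 and 19, with total counts 3 for BrdU against control, and with all 9 libraries 3 for BrdU against L-Tyr. Leaving out each library gave 0 to 11, 0 to 15 and 0 to 5 calls.

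Leaving out each library also changed the sign of other results. L-Tyr against control ranged from -0.110 to 0.197 for mir-103-1, -0.147 to 0.187 for mir-103-2 and -0.145 to 0.208 for miR-103-type reads. BrdU against L-Tyr ranged from -0.243 to 0.597 for mir-107 (-0.0227 with total counts) and from -0.0129 to 0.862 for miR-107-type reads, with both lowest values without L-Tyr replicate 1. The share that starts at base 1 ranged from -0.446 to 0.218 for BrdU against control. The share that covers base 22 ranged from -0.944 to 0.536 for L-Tyr against control, from -1.05 to 0.433 for BrdU against control and from -0.565 to 0.526 for BrdU against L-Tyr (0.157 with pooled counts, 1.08 with each distinct tag once). Of the shares chosen after the data were seen, the miR-107-type share ranged from -3.29 to 0.622 (BrdU against control), the share that ends at base 22 from -0.252 to 3.21 and the share with an added T from -1.66 to 2.87 (both BrdU against L-Tyr).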
